A study of Anopheles stephensi with 4 samples.

Results

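The genes described here are the ovary-high genes of the malaria mosquito Anopheles stephensi, those whose level in the ovary was at least 3 times the level in fat body, in midgut and in Malpighian tubules. Of 12340 reference genes, 683 met this rule (5.53%). A gene's level is the sum of the deposited FPKM (fragments per kilobase of exon, scaled between libraries by the authors) of the transcripts assigned to it. To each level 1 FPKM was added before the ratio was taken. A gene therefore needed at least 2 FPKM in ovary to be called. The levels in the same 4 tissues chose the genes, so their ratios are a description and no test of them is given.

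RNA came from adult females fed on sugar and held in the laboratory at 27 °C, a humidity of 70% and a cycle of 12 h light to 12 h dark. No strain, age or number of animals was given in the sources used here. Fat body, ovary, midgut and Malpighian tubules each gave 1 paired-end library, run on 2 lanes as technical replicates. Differences between tissues therefore compare these 4 libraries, without a replicate check and without p-values. Estimated depth ranged from 27490192 fragments in midgut to 36316831 in Malpighian tubules, with 34830892 in ovary. The files do not pair the gene identifiers with names, so the tissue labels could not be checked against marker genes and no gene can be given a role.

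The ovary of a mosquito is built of follicles, each holding an oocyte and its nurse cells under a sheet of somatic follicle cells. Nurse cells make RNA and protein for the oocyte, and much of what they make is stored for the embryo. In a female that has taken sugar but no blood, follicles usually wait in a resting stage before yolk uptake, and a blood meal starts yolk protein synthesis in the fat body. Fat body stores nutrients and secretes blood proteins, much as liver and adipose tissue do in vertebrates, midgut digests and absorbs the meal, and Malpighian tubules excrete salt, water and waste. In RNA from a dissected organ, a high level in few cells and a low level in every cell can give the same value. Fewer cells of a type and less RNA per cell therefore cannot be told apart.

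Ovary-high genes were numerous and mostly of middle abundance. They made up 8.13% of the 8406 expressed genes, those with 2 FPKM or more in at least 1 tissue (95% Wilson interval 7.56 to 8.73, which covers counting over genes only). The same rule called 632 genes in fat body (5.12%), 410 in midgut (3.32%) and 235 in Malpighian tubules (1.9%). In ovary the 683 genes ranged from 2.44 to 1760 FPKM with a median of 21.3 FPKM, and the middle 50% lay between 11.3 and 40.99 FPKM. Medians of the genes called in the other tissues were higher, at 61.3 FPKM in Malpighian tubules, 132 FPKM in midgut and 56.7 FPKM in fat body.

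Most calls rested on many fragments. The median ovary-high gene had an estimated 2587 ovary fragments, and 664 of the 683 genes had at least 100. For 657 genes (96.2%) the authors' lower bound in ovary lay above their upper bounds in all 3 somatic tissues. When the ratio of 3 was asked of these bounds in place of the values, 202 genes (29.6%) still met it. The bounds thus placed ovary above the somatic tissues for nearly every gene, while for most genes they left the ratio uncertain around 3. The genes had been chosen by a ratio of 3 in the same values, which favours such separation. The count of 657 is therefore no separate check of the calls. No tissue had a replicate library, so the bounds do not cover variation between animals.

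**Figure D1:**
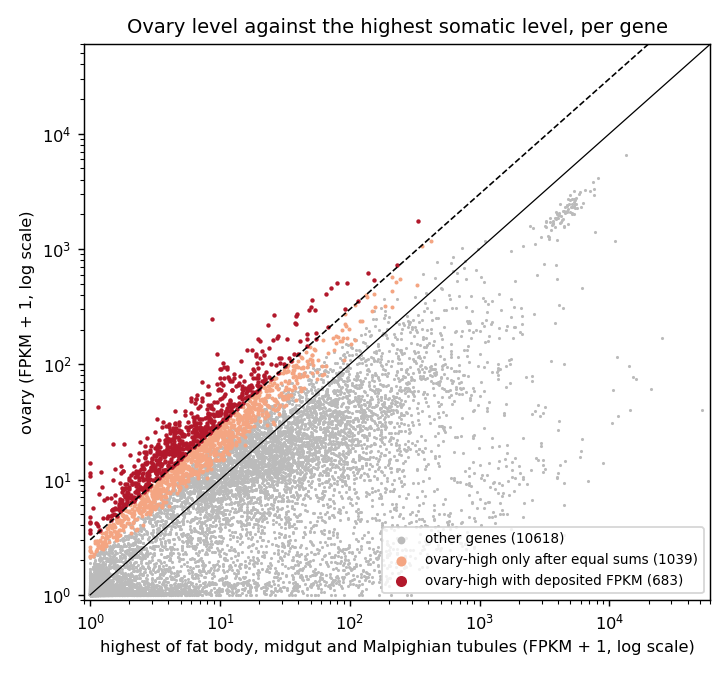
Level of each reference gene in ovary against its highest level among fat body, midgut and Malpighian tubules, both as FPKM + 1 on log scales; each point is 1 gene, the solid line marks equal levels and the dashed line a ratio of 3. The 683 ovary-high genes lie on or above the dashed line, most of them just above it, and the 1039 genes that joined after the columns were scaled to equal sums lie between the lines.

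The calls grew more frequent with the level in ovary and then levelled off. Of 987 genes at 2 to 5 FPKM in ovary, 3.55% were ovary-high, and of 1402 genes at 5 to 10 FPKM, 7.28%. The share was 10.2% of 1871 genes at 10 to 20 FPKM, 12.2% of 1776 genes at 20 to 50 FPKM and 12.6% of 1102 genes at 50 FPKM or more. The rule has a part in this rise by its construction, since the added 1 FPKM weighs most on low levels.

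The ratios of ovary-high genes were small beside those of genes called in the somatic tissues. The median ratio to the next tissue was 4.01, 340 genes had a ratio below 4, and 182 reached 5. Only 10 genes (1.46%, interval 0.797 to 2.67) reached 10. Among fat body genes 266 (42.1%) reached a ratio of 10, among midgut genes 155 (37.8%) and among Malpighian tubule genes 76 (32.3%). A minority of ovary-high genes was therefore far above every other tissue, and the share with such a ratio was the lowest of the 4 tissues.

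Most ovary-high genes were also measured in the somatic tissues. At 1 FPKM or more, 398 of the 683 (58.3%, interval 54.5 to 61.9) were present in all 3, and these had a median of 33.9 FPKM in ovary. Another 83 genes (12.2%) lay below 1 FPKM in all 3, at a median of 5.53 FPKM in ovary and at most 41.5 FPKM. Genes below 1 FPKM elsewhere were thus mostly of low level in ovary too. Of the 83, 8 were listed at 0 in all 3 somatic tissues, the highest at 12.8 FPKM in ovary. Among genes called in midgut, 66.6% had 1 FPKM or more in every other tissue, against 48.9% in Malpighian tubules and 38.8% in fat body. The shares below 1 FPKM in every other tissue were 10.5%, 21.3% and 31.2%. On both counts the ovary-high genes lay between those of midgut and those of Malpighian tubules.

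Fat body came nearest to ovary and midgut stood farthest from it. Over the 683 genes the median level was 3.74 FPKM in fat body, with 2.95 FPKM in Malpighian tubules and 1.57 FPKM in midgut. As a share of the gene's own ovary level, the median was 17.8% in fat body, with 12.8% in Malpighian tubules and 7.03% in midgut. The next highest tissue was fat body for 477 genes (69.8%), Malpighian tubules for 155 (22.7%) and midgut for 51 (7.47%). Midgut was the lowest of the 4 tissues for 533 genes (78.0%). Midgut also had the fewest reference genes at 1 FPKM or more, 7284 against 7748 to 8116 in the other tissues. The next and lowest tissues were not counted over all expressed genes, so this order cannot be called particular to ovary-high genes. This order is of deposited values and changed at its top with scaling, as given further on.

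At the top of the list, ASTEI09319 (scaffold_00089, 10001 to 11469, plus strand) stood at 1760 FPKM in ovary, 149 FPKM in Malpighian tubules, 48.2 FPKM in midgut and 332 FPKM in fat body. Next came ASTEI01393 (scaffold_00005, 1810808 to 1812211, minus strand, 2 exons), at 728 FPKM in ovary, 154 FPKM in Malpighian tubules, 147 FPKM in midgut and 230 FPKM in fat body. Its ratio of 3.16 was among the smaller ones of the list, and it overlaps a gene on the opposite strand. The 2 most abundant ovary-high genes were thus well expressed in every tissue.

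The largest ratio belonged to ASTEI05993 (scaffold_00035, 1284030 to 1284722, minus strand, 1 exon of 693 bases). It stood at 41.5 FPKM in ovary (authors' bounds 34.2 to 48.7), was listed at 0 in fat body, and had 0.110 FPKM in Malpighian tubules and 0.146 FPKM in midgut, which left a ratio of 37.1. Nearby on the same strand, and in the same assembled gene, ASTEI05995 had 12.8 FPKM in ovary and was listed at 0 in the other 3 tissues. The assembly joined 6 reference genes there, and the other 4 were not ovary-high. ASTEI05996 in the same assembled gene had 141 FPKM in ovary and 48.1 FPKM in fat body, and its ratio of 2.89 fell short of the rule.

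The next ratio was that of ASTEI09641 (scaffold_00099, 227798 to 228398, plus strand, 2 exons), at 28.5. Its level was 248 FPKM in ovary (218 to 278), 7.73 FPKM in fat body (0 to 17.3), 5.36 FPKM in midgut (0.0571 to 10.7) and 4.21 FPKM in Malpighian tubules (0 to 13.8). The ovary value stands far above the somatic ones, whose bounds are wide and overlap each other. Its transcript of 366 bases is short, and the scaled fragments per FPKM and kilobase differed between tissues by up to 1.03 times for transcripts of 300 to 500 bases.

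The values at the edge of the rule were as follows. Just inside it, ASTEI01762 (19.1 FPKM in ovary and 5.71 FPKM in midgut, its next tissue) and ASTEI11245 (104.8 FPKM in ovary and 34.3 FPKM in fat body) had ratios of 3.0003 and 3.0004. Just outside, ASTEI09821 (399 FPKM in ovary and 132 FPKM in Malpighian tubules) and ASTEI09537 (42.9 FPKM in ovary and 13.6 FPKM in midgut) had ratios of 2.999 and 2.996. These 4 genes were chosen by ratio among genes at 10 FPKM or more in ovary.

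The ovary transcriptome was broad in the number of genes that held 90% of its signal. With deposited values it was not the broadest in the number of genes detected. At 1 FPKM or more there were 7748 genes in ovary, 8116 in fat body, 7284 in midgut and 7792 in Malpighian tubules. With each column scaled to the same sum these numbers were 8160, 8012, 6900 and 8048. By gene FPKM, 117 genes held 50% of the ovary total, against 98 in fat body, 87 in midgut and 196 in Malpighian tubules. For 90% of the total, 2903 genes were needed in ovary, 1620 in fat body, 1114 in midgut and 2265 in Malpighian tubules. By FPKM, ovary thus needed more genes than the other 3 tissues at 90%, but fewer than Malpighian tubules at 50%. The order at 50% turned when estimated fragments were summed in place of FPKM, with 448 genes in ovary and 373 in Malpighian tubules, and ovary again needed the most genes at 90% (3207). The 100 most abundant genes of ovary held 47.7% of its total, against 34.7% in Malpighian tubules, and once the top 100 of each tissue were set aside 789 genes held 50% of the rest in ovary and 406 in Malpighian tubules.

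By the spread between the 10th and the 90th percentile, levels in ovary were the most even with deposited values. By the share of the 100 most abundant genes, given above, Malpighian tubules were more even. The limit of 1 FPKM moves with scaling, and the spread was not taken with equal sums. Among genes at 1 FPKM or more, the level at the 90th percentile was 27.9 times that at the 10th in ovary, 57.6 times in fat body, 79.4 times in midgut and 49.8 times in Malpighian tubules. With deposited values, 65.2% of the genes detected in ovary lay between 5 and 50 FPKM, against 50.9% to 54.7% in the somatic tissues. Fewer genes were very abundant: 468 reached 100 FPKM in ovary, 956 in fat body, 1072 in midgut and 848 in Malpighian tubules. Multiplying a column by a constant leaves the numbers of genes that hold 50% and 90% as they are, but it moves the counts by level: with each column scaled to the same sum, 987 genes reached 100 FPKM in ovary, 863 in fat body, 780 in midgut and 1101 in Malpighian tubules. The ovary-high genes carried 7.17% of the ovary gene FPKM and 13.5% of its gene fragments.

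**Figure D2:**
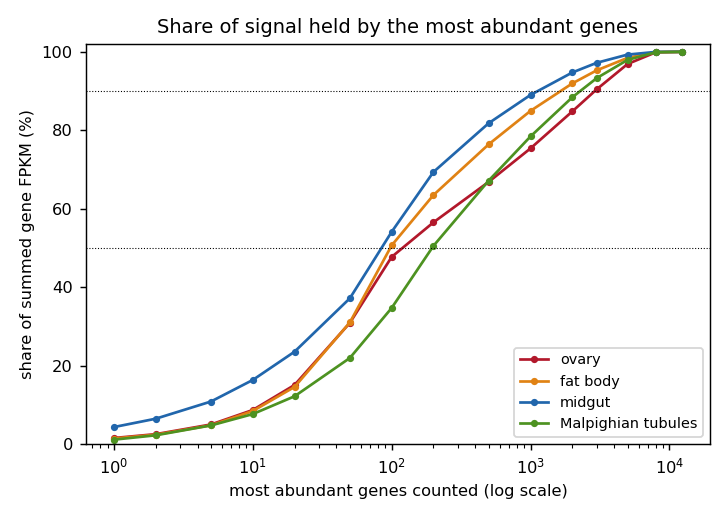
Share of the summed gene FPKM of each tissue (in percent) held by its most abundant genes, against the number of genes counted on a log scale; each line is 1 library and the dotted lines mark 50% and 90%. The ovary line passes 50% at 117 genes, close to fat body at 98, and reaches 90% at 2903 genes, to the right of the other 3 lines.

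The deposited columns have very different totals, so the calls were repeated with each column scaled to the same sum over all transcripts. The FPKM sum was 452542 in ovary, 935008 in fat body, 1272696 in midgut and 603002 in Malpighian tubules. Estimated depth did not differ in this way, at 34830892 fragments in ovary and 34840907 in fat body. Scaling raised ovary by 2.07 times over fat body, 2.81 times over midgut and 1.33 times over Malpighian tubules. With deposited values the median log2 ratio of ovary to a somatic tissue over 8406 expressed genes was close to 0, at 0.01 for fat body, 0.03 for midgut and 0.06 for Malpighian tubules. With equal sums it became 0.98, 1.30 and 0.48 over 8584 genes. Equal sums thus moved the middle of the transcriptome toward ovary, and every ratio printed for that scale includes the shift.

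With equal sums, 1722 genes were ovary-high (14%), against 493 in fat body (4%), 237 in midgut (1.92%) and 374 in Malpighian tubules (3.03%). All 683 genes stayed and 1039 joined, which the scaling itself ensures because it raised ovary over every other tissue. Of the 1039, 746 already had a ratio of 2 or more with deposited values. All 1039 had at least 1, which the factors ensure, since equal sums raised ovary over another tissue by at most 2.81 times. Their median was 15.8 FPKM in ovary, 35.3% of which was reached in fat body, 27.2% in midgut and 28.2% in Malpighian tubules. ASTEI10689 (scaffold_00152, 98804 to 100542, minus strand, 2 exons) was the most abundant of them, at 1177 FPKM in ovary, 216 FPKM in Malpighian tubules, 203 FPKM in midgut and 418 FPKM in fat body, and its ratio rose from 2.81 to 5.81. ASTEI10069 (scaffold_00111, 247215 to 267409, minus strand) followed with 1056 FPKM in ovary and 359 FPKM in fat body, and its ratio rose from 2.94 to 4.84.

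Scaling also changed which tissue stood next to ovary. After equal sums it was Malpighian tubules for 1135 of the 1722 genes (65.9%), fat body for 546 (31.7%) and midgut for 41 (2.38%). Midgut was the lowest tissue for 1531 genes (88.9%). Equal sums lowered midgut the most, so a gene lowest in midgut before scaling had to remain so. The share of large ratios was again the lowest in ovary. There 123 ovary-high genes (7.14%, interval 6.02 to 8.46) reached a ratio of 10, against 43.0% in fat body, 41.4% in midgut and 30.7% in Malpighian tubules. Factors from the median of ratios ran only from 0.970 in midgut to 1.09 in Malpighian tubules, so this scaling stayed close to the deposited values. Its count of ovary-high genes is therefore no separate check of the deposited count. With these factors 615 genes were ovary-high and 639 were fat body-high, so even this small change left ovary without the most calls.

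**Figure D3:**
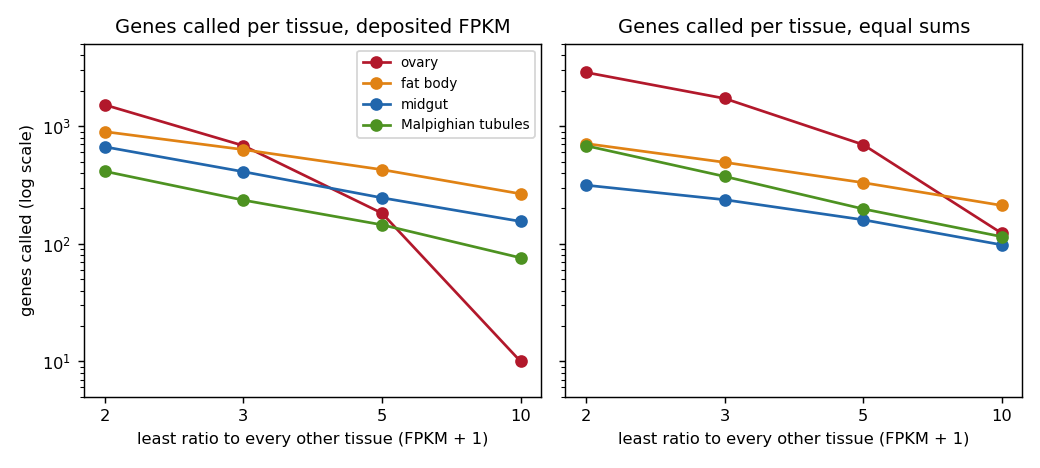
Number of genes called in each tissue (log scale) against the ratio of FPKM + 1 that was asked over every other tissue, with deposited values on the left and equal sums on the right. With deposited values the ovary line falls from 1518 genes at a ratio of 2 to 10 genes at a ratio of 10, while the fat body line falls from 898 to 266; with equal sums ovary falls from 2866 to 123.

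Ovary-high genes had long transcripts. The main isoform, the isoform with the highest level in the gene's highest tissue, had a median length of 2340 bases in ovary-high genes (95% order-statistic interval 2120 to 2508). It was 1785 bases in the 6446 expressed genes that were high in no tissue (1734 to 1839). Fat body genes had a median of 1478 bases, midgut genes 1600 bases and Malpighian tubule genes 1791 bases. Main isoforms of 5000 bases or more belonged to 138 ovary-high genes (20.2%), against 838 of the 6446 genes high in none and 5.06% to 7.32% of the somatic sets.

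The difference in length was also present among genes of like level. At 20 to 50 FPKM in ovary the median was 2408 bases in ovary-high genes and 1748 bases in the others. At 50 FPKM or more it was 1872 and 1266 bases, but that range has no upper limit and levels within it were not matched. In the main isoform, ovary-high genes had the longer median in each of the 5 ranges of level, but only 35 genes lay in the lowest range and their interval there (1128 to 3301 bases) included the median of the others (1860 bases). In that range the annotated transcripts stood the other way round, at 1437 bases in ovary-high genes and 1521 bases in the others. Over all levels the annotated transcript, mostly coding sequence since 88.8% of its lengths are multiples of 3, gave 1716 bases (1569 to 1857) against 1350. With equal sums the median main isoform was 2050 bases, and it was 1884 bases in the genes that only equal sums called.

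The lean toward ovary rose with length across the transcriptome. The expressed genes were cut into 5 classes of nearly equal size at annotated lengths of 693, 1125, 1638 and 2711 bases, and 6.73%, 5.90%, 6.81%, 10.1% and 11.1% of them were ovary-high from the shortest to the longest class. Fat body calls went from 8.73% in the shortest class to 5.41% in the longest. The median log2 ratio of ovary to fat body was -0.32 in the shortest class and 0.59 in the longest. For ovary over midgut these values were -0.25 and 0.49, and for ovary over Malpighian tubules -0.07 and 0.36. Fat body over Malpighian tubules moved the other way and less, from 0.17 in the shortest class to -0.12 in the longest. All 3 ratios of ovary thus climbed, and since each uses the same ovary library they are not separate observations. The scaled fragments per FPKM and kilobase, which carry the authors' length correction, differed between tissues by at most 1.01 times for transcripts of 500 bases or more, and by up to 1.16 times below 200 bases. With equal sums the ovary-high share went from 16.7% in the shortest class to 24.9% in the longest. Multiplying a column by a constant shifts the ratios of all length classes by similar amounts, so this is no separate check of the rise.

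**Figure D4:**
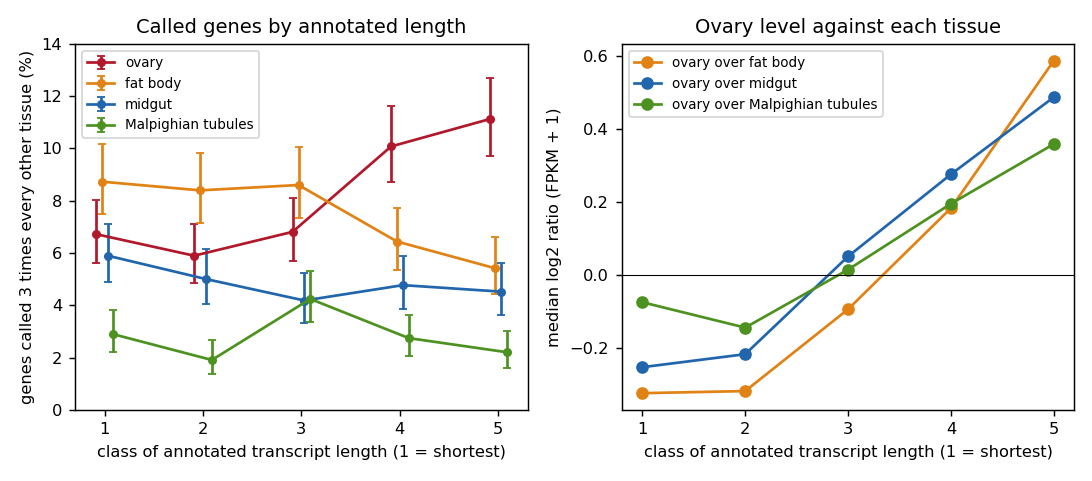
Left, share of expressed genes called in each tissue (percent, with 95% Wilson intervals) in 5 classes of annotated transcript length from 1 (shortest) to 5 (longest), slightly offset so that the intervals can be read; right, median log2 ratio of ovary to each somatic tissue on the FPKM + 1 scale in the same classes. The ovary share rises from 6.73% to 11.1% while that of fat body falls from 8.73% to 5.41%, and all 3 ratios pass from below 0 to above 0.

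In the main isoform, the added length lay in longer exons more than in more of them. The median exon number of the main isoform was 4 in ovary-high genes, in the genes of each somatic tissue and in genes high in none. In the annotated transcript it was 4 against 3, and among main isoforms after equal sums it was 3 against 4. The mean length of the main isoform's exons had a median of 571 bases over ovary-high genes and 477 bases over genes high in none. In the annotated transcript, where exon number also differed, these medians were 447.6 bases over ovary-high genes and 374 bases over genes high in none. Single-exon main isoforms were about as common in both, at 8.05% and 7.93%, while 10.7% of ovary-high genes and 7.06% of genes high in none had 10 exons or more. In Malpighian tubule genes that last share was 13.6%.

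In the main isoform both the first and the last exon were longer. The first exon had a median of 245 bases (228 to 273) in ovary-high genes and 210 bases (203 to 218) in genes high in none. The last exon had a median of 760 bases (672 to 829) against 652 (629 to 679). In the annotated transcripts the first exons differed less, with medians of 170 bases (148 to 191) and 163 bases (158 to 169) whose intervals overlap. The annotated last exons likewise had overlapping intervals, with medians of 360 bases (299 to 410) and 342 bases (330 to 353). An annotated transcript was the main isoform in 53.4% of ovary-high genes, in 54.5% of genes high in none and in 65.9% of midgut genes.

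The longest first exon among ovary-high genes at 10 FPKM or more was the single exon of ASTEI02370 (scaffold_00009, 1069536 to 1074662, minus strand, 5127 bases). Its level was 15.9 FPKM in ovary, 2.35 FPKM in Malpighian tubules, 3.48 FPKM in midgut and 3.09 FPKM in fat body. In ASTEI08471 (scaffold_00068, 809011 to 818465, plus strand, 5 exons) the first exon took 4183 of 8730 bases. That gene stood at 23.2 FPKM in ovary, 4.24 FPKM in Malpighian tubules, 4.68 FPKM in midgut and 6.005 FPKM in fat body. Both were low and similar in the 3 somatic tissues.

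Several isoforms were expressed at a time in many ovary-high genes. An isoform was counted at 1 FPKM and 10% of its gene. By this rule 332 of the 683 genes (48.6%, interval 44.9 to 52.4) had 2 or more isoforms in ovary, against 41.3% of 6450 other genes at 2 FPKM or more in ovary. With equal sums this excess was gone, at 42.2% of the 1722 genes and 41.9% of 5941 others. The share depends on level, since a weak gene can hardly show a second isoform at 1 FPKM. Within ranges of level the 2 sets had overlapping intervals up to 50 FPKM, with 38.2% against 40.2% at 5 to 10 FPKM, 48.9% against 47.8% at 10 to 20 FPKM and 51.6% against 49.8% at 20 to 50 FPKM. At 50 FPKM or more, 83 of 139 ovary-high genes (59.7%, interval 51.4 to 67.5) had 2 or more isoforms, against 392 of 963 others (40.7%, interval 37.6 to 43.8). These 2 intervals do not overlap, but they cover counting over genes only. That range also has no upper limit, so the 2 sets were not matched in level within it. In ovary 468 genes reached 100 FPKM, while the 90th percentile of all ovary-high genes was 80.9 FPKM.

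In the same genes, the number of isoforms was similar in ovary and in the somatic tissues, with a small lean toward ovary. Counting isoforms of at least 10% of the gene with no minimum level, among ovary-high genes at 5 FPKM or more in both tissues, 54.4% had 2 or more in ovary and 50.5% in fat body (281 genes). Against midgut the shares were 55.0% and 49.4% (160 genes), and against Malpighian tubules 57.5% and 52.4% (233 genes). The other genes leaned the same way, for example 46.4% in ovary and 43.7% in fat body (4755 genes). The leading isoform differed from that of fat body in 47 of 178 ovary-high genes with several models (26.4%, interval 20.5 to 33.3), and in 22.4% of the others.

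**Figure D5:**
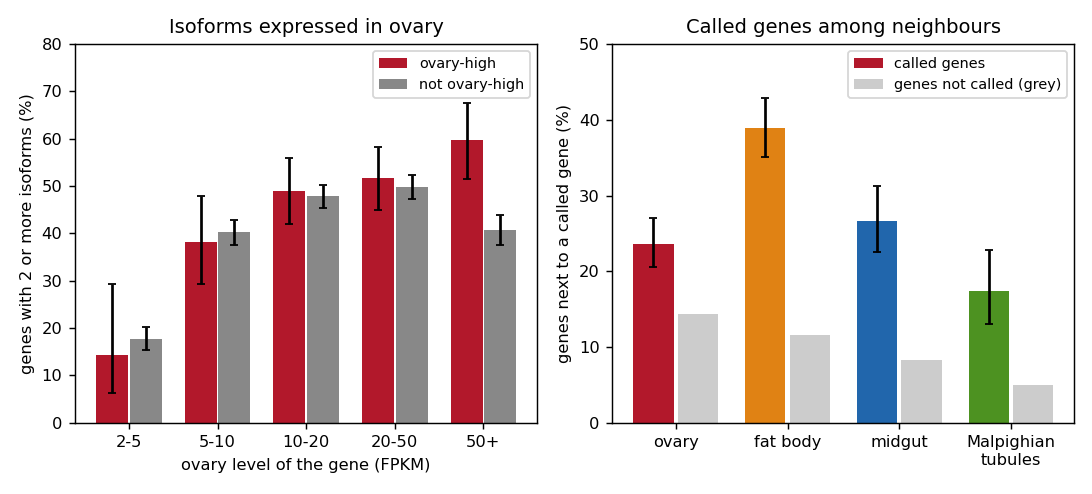
Left, share of genes with 2 or more expressed isoforms in ovary (percent) by ovary level, for ovary-high genes in red and the others in grey; right, share of expressed genes with a called gene next to them (percent), for the called genes of each tissue in colour and for the genes not called in grey, over the order of expressed genes. Error bars are 95% Wilson intervals; the red bar at 50 FPKM or more stands at 59.7% against 40.7%, and the right bars of ovary at 23.6% and 14.4%.

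Among ovary-high genes at 5 FPKM or more, 2 stood out by the share of the isoform that led in ovary, compared with the nearest somatic tissue at 2 FPKM or more. ASTEI01042 (scaffold_00004, 474611 to 481744, plus strand) stood at 25.7 FPKM in ovary, 6.61 FPKM in Malpighian tubules, 6.84 FPKM in midgut and 5.49 FPKM in fat body. In ovary 75.8% of it came from an assembled transcript of 4 exons (478533 to 481150), which gave 2.74% in fat body, 0.898% in midgut and 10.5% in Malpighian tubules. A second assembled transcript, of 5 exons at 473395 to 478454, gave 94.9% in fat body and in midgut, 84.3% in Malpighian tubules and 23.2% in ovary. The 2 transcripts do not overlap, and the annotated transcript that joins them had 0.265 FPKM in ovary. Only the downstream transcript was higher in ovary by the ratio of 3 (19.5 FPKM against at most 0.696), while the upstream one was at 5.21 to 6.49 FPKM in all 4 tissues. The gene's call rests on the downstream transcript.

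The other gene was ASTEI02186 (scaffold_00008, 1918962 to 1927228, plus strand), at 15.1 FPKM in ovary, 2.23 FPKM in Malpighian tubules, 0.635 FPKM in midgut and 1.91 FPKM in fat body. Its annotated transcript gave 51.0% of the gene in ovary and was listed at 0 in Malpighian tubules. In fat body it gave 40.2%, at a gene level below the 2 FPKM asked for the comparison. For this gene the difference was thus one between ovary and Malpighian tubules.

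Single transcripts also passed the rule on their own. Of 22059 transcripts in genes, 1290 were ovary-high (5.85%, beside 5.53% of genes), and 861 of them belonged to ovary-high genes. The remaining 429 lay in 370 genes that were not ovary-high, whose median ratio as genes was 1.59. These transcripts made up a median of 35.0% of their gene in ovary. Of the 429, 172 (40.1%) were the leading isoform there, and 244 (56.9%) shared a splice junction with the annotated transcript without matching it. These shares were not taken over all transcripts in genes, so they cannot be called particular to the 429. In the other direction, 36 ovary-high genes (5.27%) held no transcript that passed alone.

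Ovary-high genes lay next to each other more often than the other genes lay next to them, but in short groups. Of 650 ovary-high genes with a neighbour on their scaffold, 137 (21.1%, interval 18.1 to 24.4) had an ovary-high gene next to them, compared with 10.01% of the genes that were not ovary-high. Without overlapping pairs and pairs in 1 assembled gene, whose reads may be shared, it was 107 of 639 (16.7%, against 9.29%), and among same-strand neighbours 62 of 427 (14.5%, against 6.44%). In the order of expressed genes only, the shares were 23.6% (interval 20.5 to 27.0) and 14.4%. Fat body genes had a share of 38.9% in that order (against 11.6%), midgut genes 26.7% (against 8.30%) and Malpighian tubule genes 17.4% (against 4.99%). With equal sums, where more genes were called, the shares in the order of all genes were 34.7% and 23.96%. The excess of ovary-high neighbours was thus present in each of these counts, and with deposited values it was the smallest of the 4 tissues as a ratio of the shares.

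The groups were pairs for the most part. The 683 genes formed 546 single genes, 61 pairs and 5 runs of 3, while fat body had a run of 5. Of the 71 neighbouring pairs, 32 pointed the same way, 25 were head to head and 14 tail to tail, and 16 overlapped or lay in 1 assembled gene. Head-to-head pairs made up 35.2% (interval 25.1 to 46.8), and among all pairs of expressed genes 31.0%, which lies within that interval. Whether the libraries or the counting kept strand is not given in the sources used here, and reads of a gene and of one that overlaps it on the other strand may be mixed. Such overlaps concerned 82 ovary-high genes (12.0%), against 14.5% of genes high in none.

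Among the 5 runs of 3, the run with the highest mean level reached from ASTEI09641 to ASTEI09643 (scaffold_00099, 227798 to 368920, plus strand). The gene between them, ASTEI09642, had 269 FPKM in ovary, 25.3 FPKM in Malpighian tubules, 6.45 FPKM in midgut and 22.1 FPKM in fat body, a ratio of 10.3. The last, ASTEI09643, had 7.39 FPKM in ovary, 0.826 FPKM in Malpighian tubules, 0.339 FPKM in midgut and 0.858 FPKM in fat body. ASTEI09641 and ASTEI09642 belong to 1 assembled gene, so their levels may share fragments, whereas ASTEI09643 lies in another.

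Neighbours that were not ovary-high themselves were less far below their highest somatic tissue than other genes were. The 1012 expressed genes next to an ovary-high gene, without overlap and outside its assembled gene, had a median log2 ratio of ovary to the highest somatic tissue of -0.55. The 6657 expressed genes farther away had -0.90. The same medians for the somatic tissues were -0.90 and -0.94 around fat body genes, -0.93 and -0.89 around midgut genes and -0.98 and -1.04 around Malpighian tubule genes. With equal sums the ovary medians were -0.01 (2095 genes) and -0.46 (4670 genes). The distributions overlapped widely, since the middle 50% of the ovary neighbours ran from -1.97 to 0.47 and that of the others from -2.30 to 0.28.

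Ovary-high genes were spread over the assembly. On the 18 scaffolds with at least 100 expressed genes, their share ran from 4.57% (10 of 219 genes, interval 2.499 to 8.20) on scaffold_00002 to 12.2% (15 of 123, interval 7.53 to 19.1) on scaffold_00026, with a median of 7.12%. The intervals of these extremes overlap.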

How the data were processed

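CASAVA 1.8, HISAT2, StringTie 1.2.1 and Cuffdiff were used upstream, per the submitters' processing notes, and the genome build, strand setting and other versions are not given in the sources used here. The authors deposited FPKM with bounds for 25785 transcripts per tissue, and a signal named counts that is scaled and not whole. Between 98.3% and 99.0% of its low values lay within 0.1% of sums of 2 steps; division by the mean step gave estimated fragments. No count model was used.

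Gene levels sum the transcripts that match the annotated one, share a junction with it, overlap its exons or are single exons within it, and gene bounds are sums of transcript bounds. The call rule, the step search and the neighbour counts were checked on simulated data. Python 3.11.15, pandas 2.3.3, numpy 2.4.6, scipy 1.17.1 and matplotlib 3.10.9 were used. None of the reference table's 15394 genes matched an identifier (0 of 12340), so the planned marker lists could not be used. Identifiers named are at most 2 per description, the extremes of each measure; of 5 runs tied in length, the one with the highest mean ovary level was taken, a choice made after the tie was seen. The ovary-high genes and all comparisons were chosen with earlier results of these data known. Coordinates are 1-based, on the scaffolds of the deposited annotation. The 671 transcripts on the opposite strand, in introns, past gene ends or with splice errors did not enter gene levels.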

Additional observations from a re-analysis of the deposited data

Results flagged for a closer look

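Some loci outside the reference genes also met the ratio of 3 in ovary, in data that the comparisons of genes do not use, and in most classes their share was at or below that of reference genes. Of 1745 intergenic assembled loci at 2 FPKM or more in any tissue, 138 were ovary-high (7.91%, Wilson interval 6.73 to 9.27), against 8.13% of expressed reference genes, with a highest ovary level of 423 FPKM. Of 182 such loci in repeats, 7 were ovary-high (3.85%, interval 1.88 to 7.73), at up to 14.7 FPKM. Of 223 transcripts on the opposite strand of a reference gene, 12 were ovary-high (5.38%), the highest at 473 FPKM. Inside introns 5 of 54 transcripts were ovary-high (9.26%, interval 4.02 to 19.9), the highest at 251 FPKM, and just past gene ends 10 of 247 (4.05%), the highest at 168 FPKM. With equal sums these 5 numbers became 311, 19, 44, 6 and 24, while ovary-high reference genes went from 683 to 1722. Shares of expressed loci were not taken with equal sums, so these counts cannot be set against the share of reference genes. Each library gives 1 value per locus, and whether strand was kept is not given in the sources used here.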

How the results depend on the processing

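The number of ovary-high genes was 683 and moved most with scaling and with the ratio. It was 1722 with equal sums over all transcripts, 1673 with equal sums over gene transcripts and 1785 with sums of 1000000, the last chosen after seeing the data. Ratios of 2, 5 and 10 gave 1518, 182 and 10 genes, a pseudocount of 5 FPKM gave 246, and the authors' bounds gave 202. The other settings gave 546 to 1023 genes, among them 1009 without fat body. They include the median of ratios (615), whose factors lie close to the deposited scale, so that count is no separate check. The ratio of median lengths to genes high in none was 1.31; it was 1.16 with equal sums, 1.58 against fat body genes and 1.46 against midgut genes. For the first exon it was 1.17, and 1.04 in annotated transcripts. For exon number it was 1, but 1.33 in annotated transcripts and 0.75 with equal sums. The isoform share of 48.6% (41.3% of other genes) was 37.9% (29.9%) with limits of 2 FPKM and 20%, and 42.2% (41.9%) with equal sums. The neighbour share of 21.1% (10.01% of genes not called) was 16.7% (9.29%) without overlapping or jointly assembled pairs, 14.5% (6.44%) on the same strand and 34.7% (23.96%) with equal sums. The 117 genes that held 50% of the ovary signal became 448 by fragments and 789 without the 100 most abundant (Malpighian tubules 196, 373 and 406). The causes were not tested. Limiting genes to 10 to 50 FPKM, and counting isoforms with no minimum level, were also chosen after seeing the data and gave a length ratio of 1.32 and isoform shares of 50.4% (48.8% of others) and 50.9% (46.1%). No paired analysis was possible because each tissue had 1 library. Orders between tissues turned in several settings: ovary had more calls than fat body at a ratio of 3 (632) but fewer at 5 (427) and with the median of ratios (615 against 639). The tissue next to ovary and the place of ovary among genes at 1 FPKM and at 100 FPKM also turned with equal sums.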
